A study of Mus musculus with 2 samples.

Results

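The genes that encode integrin subunits and laminin chains were described in the aorta of Apoe−/− mice across cell types and across 2 diets. Members were chosen by symbol, as every gene whose name starts as an integrin alpha, an integrin beta or a laminin alpha, beta or gamma gene does, without pseudogenes and without the Itgb1bp genes. The rule found 39 of 31053 genes, with 18 integrin alpha genes, 9 integrin beta genes and 11 laminin genes. The remaining member, Itgb3bp, encodes a centromere protein that can bind integrin beta 3 and is not itself an integrin subunit.

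Integrins are receptors of 1 alpha and 1 beta subunit in the cell membrane, and they tie the cytoskeleton to the matrix outside the cell or to ligands on other cells. Laminins are trimers of an alpha, a beta and a gamma chain that form the sheet of a basement membrane together with collagen IV, nidogens and perlecan. In the vessel wall, laminins with the alpha 4 or alpha 5 chain lie under the endothelium, integrins of the beta 1 family hold endothelial and muscle cells to it, and integrins of the beta 2 family serve leukocytes. The levels given here are of RNA, and pairing of subunits was not measured.

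The ND library came from male Apoe−/− mice on a C57BL/6 background fed normal chow, and the HFD library from like mice fed a high-fat, high-cholesterol diet. Mice of both groups were 16 weeks old and lacked Apoe, so no wild-type aorta stands beside them. Cells of the aortic arch were released with enzymes and read as single-cell RNA-seq with unique molecular identifiers (UMIs), 1 library per diet, each from 2 pooled aortas. With 1 library per diet no difference between diets or cell types has a replicate check, no test was made, and every interval covers counting error only.

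After the filter on cells, 5416 ND cells and 2739 HFD cells were kept, with 27137322 and 17191279 UMIs and medians of 3732.5 and 5336 UMIs per cell. Mitochondrial RNA made up 16.83% of UMIs in the median ND cell and 21.88% in the median HFD cell. Levels are in CPM, the UMIs of a gene with all UMIs of its gate scaled to a total of 1000000. Haemoglobin genes, which mark red cell RNA, summed to 6081 CPM in ND and 39531 CPM in HFD capillary endothelial cells, and to 1340 and 7047 CPM in macrophages. Cells were gated into 17 classes and 8 sub-gates by UMIs of marker genes. Cells that reached the minimum of more than 1 class, 9.73% of ND and 15.6% of HFD cells, were left out as mixed. The libraries shared 39 barcodes, of which 1 was kept. The markers of cardiomyocytes and platelets gated 0 cells in both libraries. The HFD library held 0 airway epithelial cells, 1 Schwann cell, 6 neutrophils and 9 B cells against 55, 29, 74 and 488 in the ND library, so levels in those types stand for the ND library. 

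The members held 59444 UMIs in kept ND cells and 34851 in kept HFD cells, 2190 and 2027 CPM. At least 200 UMIs over both libraries were counted for 26 members, and 13 had fewer. Among these were Itga7 with 177, Itga2b with 160, Lamb3 with 158, Itga10 with 125, Itga2 with 124, Itgb8 with 107, Itgae with 102, Lama3 with 91, Itgb6 with 27, Itgb2l with 13, Itgad with 10 and Lama1 with 1 UMI. Of the 26 better counted members, 10 had the same highest gate in both libraries. Gates of at least 20 cells were ranked, and a class with sub-gates (endothelial, macrophage, dendritic and T cells) was ranked by its sub-gates. Both T cell sub-gates of the HFD library held under 20 cells, so HFD T cells were not ranked. HFD smooth muscle (12), lymphatic endothelial (7), mesothelial (19) and Schwann cells (1) were not ranked either. A member highest in one of these gates in ND could not have the same highest gate in both libraries, so gate size limits the count of 10. For some members an unranked HFD gate stood above a gate named as highest or next. Among them were Itgav, Itga3, Itga5, Itga9, Itgb3, Itgb4, Lama4, Lama5, Lamb1, Lamb2 and Lamc1.

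Promoter windows of 4 genes on which the results turn are shown first. Itga1 was the member most often lower in the HFD library. Itgb5 was lower in capillary endothelial cells and higher in the whole macrophage gate of the HFD library. Itgam and Itgax, neighbours on chromosome 7 with 11056 bases between the end of Itgam and the start of Itgax, differed in opposite directions between 2 kinds of macrophage. Each window runs from 250 bases before to 50 bases after the start of the gene, and 25 of the 39 members have one in the RefSeq table used, on GRCm38.p6. The windows lie at chr13:115101915-115102214 on the minus strand for Itga1, chr16:33829415-33829714 on the plus strand for Itgb5, chr7:128062390-128062689 on the plus strand for Itgam and chr7:128129300-128129599 on the plus strand for Itgax. Capitals mark GGAA, the core of sites for Ets factors, on either strand, so that TTCC is marked too. These motifs were chosen after the levels had been seen.
Itga1: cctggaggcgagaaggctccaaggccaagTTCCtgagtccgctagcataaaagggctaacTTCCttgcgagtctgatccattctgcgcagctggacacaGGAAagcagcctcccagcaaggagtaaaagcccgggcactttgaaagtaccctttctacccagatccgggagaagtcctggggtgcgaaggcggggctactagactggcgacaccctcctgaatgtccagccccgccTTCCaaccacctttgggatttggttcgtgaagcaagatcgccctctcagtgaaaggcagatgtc
Itgb5: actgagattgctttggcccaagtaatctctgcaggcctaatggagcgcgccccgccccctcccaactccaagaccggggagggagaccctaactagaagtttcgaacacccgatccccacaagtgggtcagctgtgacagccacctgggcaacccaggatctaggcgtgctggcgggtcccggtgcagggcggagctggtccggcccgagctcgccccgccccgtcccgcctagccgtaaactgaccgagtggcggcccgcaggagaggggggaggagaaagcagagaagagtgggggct
Itgam: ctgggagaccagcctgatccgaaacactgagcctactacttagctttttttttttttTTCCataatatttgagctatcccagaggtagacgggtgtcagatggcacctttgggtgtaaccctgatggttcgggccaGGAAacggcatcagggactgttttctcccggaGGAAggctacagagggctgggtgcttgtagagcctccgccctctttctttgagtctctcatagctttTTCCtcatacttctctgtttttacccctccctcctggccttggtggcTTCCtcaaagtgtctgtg
Itgax: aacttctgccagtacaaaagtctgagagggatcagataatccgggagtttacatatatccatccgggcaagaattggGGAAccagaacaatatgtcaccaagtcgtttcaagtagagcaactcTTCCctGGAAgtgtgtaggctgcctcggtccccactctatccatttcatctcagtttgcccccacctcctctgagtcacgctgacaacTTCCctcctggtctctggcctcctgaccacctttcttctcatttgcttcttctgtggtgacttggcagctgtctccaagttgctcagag
The window of Itgam held 5 and those of Itga1 and Itgax 4 copies of GGAA, and that of Itgb5 held 0, against at least 1 copy in 96.0% of 32851 windows of the same length. The longer form GAGGAA, which overlaps GGAA and is known as a site of the myeloid factor PU.1, was found 3 times in the Itgam window and 0 times in the other 3, and 28.3% of all windows held it on either strand. The AP-1 site TGANTCA was found 1 time in the Itgax window and in 7.81% of all windows. A match of letters is a description of the sequence and not a site shown to be bound.

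**Figure D1:**
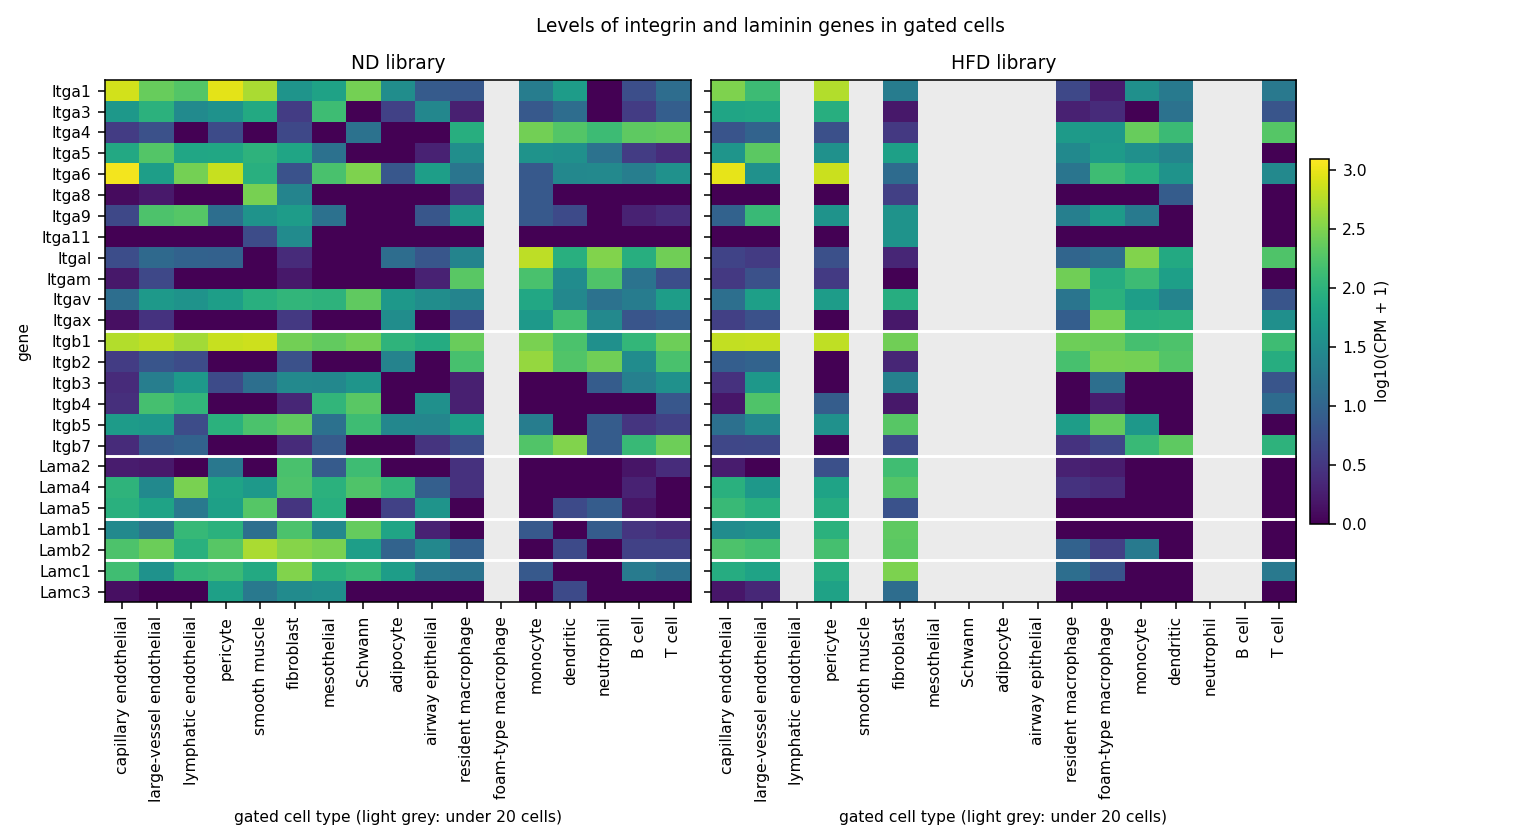
Levels of the 25 integrin and laminin genes with at least 200 UMIs (rows, Itgb3bp left out) in gated cell types (columns) of the ND library (left) and the HFD library (right), as log10(CPM + 1), with gates under 20 cells in light grey and white lines between gene families. Itga6 and Itga1 were bright in capillary endothelial cells and pericytes, Lama2 and Lamc1 in fibroblasts, and Itgal and Itgb7 in blood cell types.

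The beta 1 chain, the partner shared by most matrix integrins, was counted in every gate of at least 20 cells. In the ND library Itgb1 was highest in smooth muscle cells at 722 CPM (37 cells) and next in pericytes at 681 CPM (36 cells). Among ranked HFD gates it was highest in large-vessel endothelial cells at 667 CPM and next in capillary endothelial cells at 646 CPM. The 12 HFD smooth muscle cells, too few to be ranked, were at 756 CPM. These levels lay close together, and the order of gates for Itgb1 is not settled by the counts.

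Itga1, which pairs with beta 1 into a receptor for collagen and laminin, was highest in pericytes in both libraries and next in capillary endothelial cells. Its level in pericytes was 932 CPM in ND and 559 CPM in HFD. In ND smooth muscle cells it was 508 CPM. Of the pericytes, 27 of 36 ND and 54 of 61 HFD cells also reached the endothelial minimum, and the 5 endothelial markers summed to 3763 and 3634 CPM in that gate against 5653 and 4640 CPM in capillary cells. The part of endothelial RNA in the pericyte levels of Itga1 and Itga6 was not tested.

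Itga6, the alpha chain of laminin receptors, was highest in capillary endothelial cells in both libraries, at 1101 CPM in ND and 978 CPM in HFD. Pericytes followed with 685 and 717 CPM. In the ND library Schwann cells, which wrap axons and rest on a basement membrane, came next with 312 CPM from 23 UMIs.

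Other alpha chains that bind matrix were spread over several cell types. Itga5, the alpha chain of the fibronectin receptor, was highest in large-vessel endothelial cells at 184 CPM in ND and 207 CPM in HFD. Next were ND smooth muscle cells at 101 CPM and, among ranked HFD gates, fibroblasts at 57.5 CPM. The unranked HFD smooth muscle cells were at 151 CPM from 15 UMIs. Itga3, another laminin receptor chain, was highest in ND mesothelial cells at 134 CPM (20 UMIs) and, among ranked HFD gates, in pericytes at 86.0 CPM. Large-vessel endothelial cells were next in both libraries at 97.0 and 69.4 CPM. The unranked HFD smooth muscle cells were at 90.8 CPM from 9 UMIs. Itga9 was highest in ND lymphatic endothelial cells at 193 CPM (46 UMIs in 28 cells) and in HFD large-vessel endothelial cells at 124 CPM, ahead of ND large-vessel endothelial cells at 171 CPM and HFD foam-type macrophages at 48.0 CPM. Itga9 is known for its part in lymphatic valves.

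Smooth muscle cells and fibroblasts carried further alpha chains. Itga8 was highest in ND smooth muscle cells at 294 CPM (70 UMIs) with fibroblasts next at 24.0 CPM. In the HFD library 17 of the 19 Itga8 UMIs of smooth muscle cells lay in 1 of 12 cells, so its level of 192 CPM there rests on that cell. Among HFD gates of at least 20 cells Itga8 did not pass 11.6 CPM, a value of 2 UMIs from Xcr1 dendritic cells, with fibroblasts next at 2.82 CPM. Among ranked gates Itga11, a receptor chain for fibrillar collagen, was highest in fibroblasts in both libraries at 30.5 and 37.8 CPM. The next ranked gate was ND smooth muscle cells with 1 UMI, while the other HFD gates of at least 20 cells held 0. The 12 unranked HFD smooth muscle cells were at 80.7 CPM from 8 UMIs. Itga7, the laminin receptor chain of muscle, was at 126 CPM in ND smooth muscle cells and 103 CPM in ND pericytes.

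Itgav and its beta partners bind vitronectin, fibronectin and osteopontin. Itgav was highest in ND Schwann cells at 217 CPM (16 UMIs) and next in ND fibroblasts at 108 CPM. Among ranked HFD gates it was highest in foam-type macrophages at 93.9 CPM ahead of fibroblasts at 83.5 CPM. The unranked HFD mesothelial and smooth muscle cells were at 183 and 151 CPM, from 19 and 15 UMIs. Itgb5 was highest in ND fibroblasts at 217 CPM with ND smooth muscle cells next at 168 CPM, and in the HFD library in foam-type macrophages at 232 CPM with fibroblasts next at 194 CPM. Itgb3 was highest in ND unconventional T cells at 64.5 CPM (53 cells) and next in ND lymphatic endothelial cells at 46.0 CPM (11 UMIs). The order of these small ND gates is not settled by the counts. Among ranked HFD gates it was highest in large-vessel endothelial cells at 43.4 CPM and next in fibroblasts at 21.4 CPM. The unranked HFD lymphatic endothelial cells were at 89.8 CPM from 3 UMIs. Itgb8 was at 230 CPM in ND Schwann cells from 17 UMIs, and Itgb6 was at 18.5 CPM in ND airway epithelial cells, where 19 of its 27 UMIs lay. Both activate latent TGF-beta.

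Itgb4, which pairs with alpha 6 in firm laminin contacts, was highest in ND Schwann cells at 203 CPM (15 UMIs) and next in ND large-vessel endothelial cells at 151 CPM. Among ranked HFD gates large-vessel endothelial cells were highest at 177 CPM and pericytes next at 7.17 CPM. Lymphatic endothelial cells were at 109 CPM in ND from 26 UMIs and, unranked, at 89.8 CPM in HFD from 3 UMIs. Schwann cells thus held both Itga6 and Itgb4 in the ND library, and they also held Lama2 at 136 CPM and Lamb1 at 230 CPM.

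Leukocyte chains followed blood cell types. Itgb2, the shared beta chain of leukocyte integrins, was highest in ND monocytes at 406 CPM and ND neutrophils at 263 CPM, and in HFD foam-type macrophages at 290 CPM and HFD monocytes at 283 CPM. Itgal, which forms LFA-1 with it, was highest in monocytes in both libraries at 618 and 327 CPM, followed by ND neutrophils at 326 CPM and, among ranked HFD gates, Xcr1 dendritic cells at 116 CPM. Itga4, the chain that binds Vcam1, was highest in monocytes at 277 and 239 CPM, followed by ND B cells at 214 CPM and, among ranked HFD gates, Xcr1 dendritic cells at 87.1 CPM. The unranked HFD T cells, 28 cells in all, were at 190 CPM for Itga4 and 173 CPM for Itgal, above the Xcr1 dendritic cells. The whole HFD dendritic gate, ranked only by its sub-gate, was at 127 CPM for Itga4 and 75.7 CPM for Itgal. Itgam, the alpha chain of Mac-1, was highest in resident macrophages in both libraries at 203 and 266 CPM, followed by ND neutrophils at 173 CPM and HFD monocytes at 133 CPM.

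Xcr1 dendritic cells were among the 3 highest ranked gates for Itgax, Itgb7 and Itgae in both libraries. Among ranked ND gates Itgax, known as Cd11c, was highest in Xcr1 dendritic cells at 156 CPM (29 UMIs), with monocytes next at 45.1 CPM. Among ranked HFD gates it was highest in foam-type macrophages at 281 CPM, with monocytes next at 88.4 CPM. The whole ND macrophage gate, ranked only by its sub-gates, was at 68.7 CPM, above ND monocytes. Most Itgax UMIs of that gate lay outside its resident and foam-type cells. Itgb7, a chain that guides lymphocytes to gut vessels and epithelium, was highest in ND unconventional T cells at 400 CPM and ND Xcr1 dendritic cells at 296 CPM, and in HFD Xcr1 dendritic cells at 221 CPM and HFD monocytes at 124 CPM. Itgae, its partner Cd103, was at 167 CPM in ND and 163 CPM in HFD Xcr1 dendritic cells, the dendritic cells that carry antigen to CD8 T cells. No other gate of at least 20 cells held more than 3 Itgae UMIs, apart from the whole dendritic gate that holds them, at 121 and 99.8 CPM. For Itgb7 that whole gate was at 321 CPM in ND and 214 CPM in HFD, so the ND level was not higher in its Xcr1 cells. For Itgax the whole gate was at 145 CPM in ND and 96.4 CPM in HFD, the latter above HFD monocytes. Itgb3bp was highest in ND CD8 T cells at 31.0 CPM and in HFD fibroblasts at 9.02 CPM, with ND unconventional T cells at 25.8 CPM and HFD large-vessel endothelial cells, with 5 UMIs, next.

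Laminin alpha chains differed between cell types. Lama2, the chain of muscle and nerve basement membranes, was highest in fibroblasts in both libraries at 163 and 142 CPM, with ND Schwann cells next at 136 CPM and HFD pericytes at 4.78 CPM. Lama4 was highest in ND lymphatic endothelial cells at 297 CPM (71 UMIs) and next in ND Schwann cells at 176 CPM. Among ranked HFD gates it was highest in fibroblasts at 183 CPM with capillary endothelial cells next at 91.5 CPM. The unranked HFD lymphatic endothelial cells were at 359 CPM from 12 UMIs. Lama5 was highest in ND smooth muscle cells at 193 CPM and next in ND capillary endothelial cells at 92.0 CPM. Among ranked HFD gates it was highest in capillary endothelial cells at 126 CPM and next in large-vessel endothelial cells at 90.4 CPM. The unranked HFD smooth muscle cells were at 192 CPM from 19 UMIs. Lama3, a chain of epithelial basement membranes, was counted little but was highest in large-vessel endothelial cells in both libraries, at 13.5 and 11.1 CPM.

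Fibroblasts were among the 3 highest gates for each of the laminin beta and gamma genes Lamb1, Lamb2, Lamc1 and Lamc3 in both libraries. Lamb1 was highest in ND Schwann cells at 230 CPM, then ND fibroblasts at 165 CPM. Among ranked HFD gates it was highest in fibroblasts at 214 CPM, then pericytes at 95.6 CPM. The unranked HFD lymphatic endothelial cells were at 180 CPM from 6 UMIs. Lamb2 was highest in ND smooth muscle cells at 512 CPM, then ND fibroblasts at 348 CPM. Among ranked HFD gates it was highest in fibroblasts at 206 CPM, then capillary endothelial cells at 171 CPM. The unranked HFD smooth muscle cells were at 242 CPM from 24 UMIs. Lamc1, the common gamma chain, was highest in fibroblasts at 323 and 306 CPM. Next were ND capillary endothelial cells at 140 CPM and, among ranked HFD gates, pericytes at 81.2 CPM. The unranked HFD lymphatic endothelial and smooth muscle cells were at 150 and 141 CPM from 5 and 14 UMIs. Lamc3 was highest in pericytes in both libraries at 57.5 and 59.7 CPM, from 14 and 25 UMIs, followed by ND mesothelial cells at 33.6 CPM and HFD fibroblasts at 11.8 CPM.

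Large-vessel endothelial cells, gated by at least 2 of Vwf, Vcam1 and Cytl1, and capillary endothelial cells, gated by Gpihbp1, were then set against each other within each library. The question was which integrins and laminins differ between endothelial cells that line the aorta and those of small vessels. The gates held 221 and 1877 ND cells and 93 and 972 HFD cells. A gene was taken as past the fold at 1.5-fold or more, provided the 2 gates together held 30 UMIs of it or more. In ND, 11 of 21 members counted enough were past the fold upward in large-vessel cells and 5 downward, against 29.8% and 23.0% of 10509 genes. In HFD, 7 of 18 members were past the fold upward and 3 downward, against 33.1% and 21.0% of 9364 genes. The median log2 ratio of the members was 0.91 in ND and 0.23 in HFD, beside 0.11 and 0.18 over all genes.

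Itga6 and Itgb4, which form 1 receptor, were far apart in opposite directions. Itga6 was at 1101 CPM in capillary and 53.4 CPM in large-vessel cells of the ND library, and at 978 and 35.9 CPM in the HFD library. Itgb4 was at 1.65 CPM in capillary and 151 CPM in large-vessel cells in ND, and at 0.530 and 177 CPM in HFD. Large-vessel cells thus had 20.6-fold less Itga6 in ND and 27.2-fold less in HFD, and 91.8-fold more Itgb4 in ND. In HFD the ratio of Itgb4 was 334-fold, with a log2 interval of 6.81 to 10.68, since capillary cells held only 3 UMIs.

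Itga9, Itgb3, Itga5 and Itgav were higher in large-vessel cells in both libraries. Itga9 was at 171 against 3.64 CPM in ND and at 124 against 8.48 CPM in HFD, which is 46.8-fold and 14.6-fold higher. Itgb3 was at 20.3 against 1.41 CPM in ND and at 43.4 against 1.77 CPM in HFD. Itga5 was 2.52-fold higher in ND and 5.18-fold higher in HFD, and Itgav 3.68-fold and 4.45-fold higher. These chains take part in receptors for fibronectin and related ligands. Fn1, the gene of fibronectin, was likewise higher in large-vessel cells, at 1114 against 15.5 CPM in ND and 1629 against 40.3 CPM in HFD.

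Itga1 and Lama4 were lower in large-vessel cells in both libraries. Itga1 was at 241 against 769 CPM in ND and at 134 against 318 CPM in HFD. Lama4 was at 28.2 against 103 CPM in ND and at 43.4 against 91.5 CPM in HFD, 3.65-fold and 2.11-fold lower. Lamc1 was 3.73-fold lower in ND, at 37.4 against 140 CPM, but in HFD its log2 ratio was -0.39 with an interval of -0.84 to 0.04. Lamb1 was 1.96-fold lower in ND at 14.7 against 28.9 CPM, while in HFD its levels of 35.9 and 30.7 CPM had a log2 ratio of 0.23 with an interval of -0.40 to 0.80. Collagen IV, the other sheet of the basement membrane, lay the same way as Lama4, with Col4a1 5.03-fold lower in large-vessel cells in ND and 3.02-fold lower in HFD.

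Itgb1 and Lama5 differed less between the endothelial gates. Itgb1 was at 545 CPM in capillary and 632 CPM in large-vessel cells in ND and at 646 and 667 CPM in HFD. Lama5 was at 92.0 and 62.6 CPM in ND and at 126 and 90.4 CPM in HFD. Both genes stayed within the 1.5-fold limit in both libraries, although Lama5 was lower in large-vessel cells with log2 intervals of -0.87 to -0.26 in ND and -0.85 to -0.13 in HFD.

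**Figure D2:**
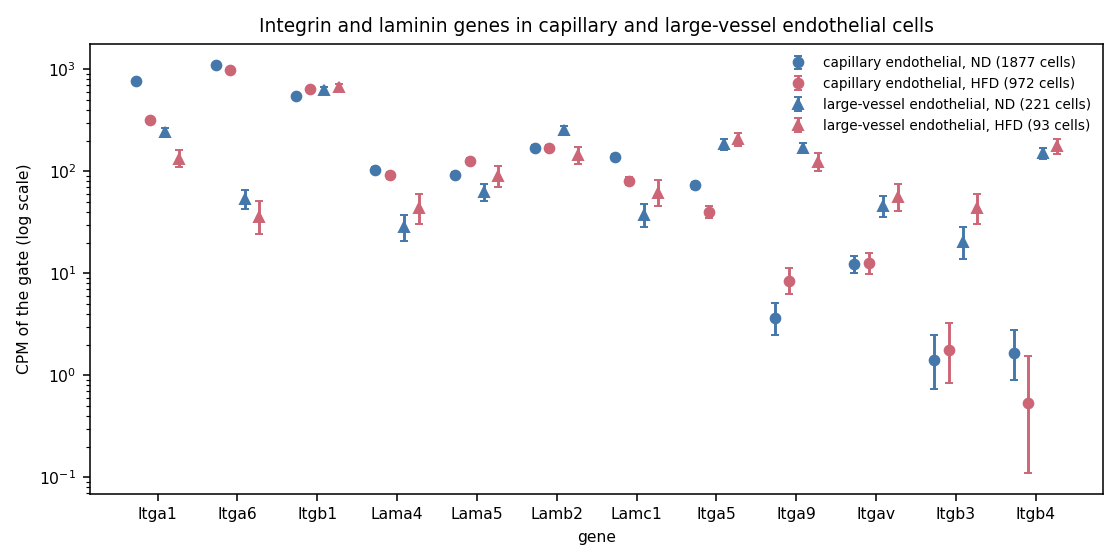
Levels of 12 integrin and laminin genes (CPM of the gate, log axis) in capillary (circles) and large-vessel (triangles) endothelial cells of the ND (blue) and HFD (red) libraries, with exact 95% Poisson intervals as bars. The triangles lie below the circles for Itga1, Itga6 and Lama4 and above them for Itga5, Itga9, Itgav, Itgb3 and Itgb4 in both libraries.

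The diets were then compared within gates, to ask which integrin and laminin genes stood at another level in cells of the same kind after the high-fat, high-cholesterol diet. The same limits of 1.5-fold and 30 UMIs were used, and a member is named with its ratio where its interval lay wholly on 1 side of no difference. In capillary endothelial cells 5 of 20 members were past the fold upward in HFD and 5 downward, against 7.08% and 17.7% of 10646 genes. The median log2 ratio of the members was -0.09, and that of all genes -0.16.

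Itga1 was the best counted of the lower genes in capillary endothelial cells. It was at 769 CPM in ND (6542 UMIs) and 318 CPM in HFD (1798 UMIs), a log2 ratio of -1.28 with an interval of -1.35 to -1.20. Capillary cells can be split by Cxcl9, an interferon-induced chemokine that more ND cells carried, 1017 of 1877 against 214 of 972 HFD cells. Itga1 was lower in HFD cells on both sides of that split, with a log2 ratio of -1.08 where Cxcl9 was counted and -1.23 where it was not. The split was added after the data had been seen.

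Itga1 was also lower in 4 other gates. In large-vessel endothelial cells it was at 241 CPM in ND and 134 CPM in HFD, a log2 ratio of -0.85 with an interval of -1.17 to -0.54. In pericytes 932 against 559 CPM gave -0.74, from -1.01 to -0.47. In smooth muscle cells, with 37 ND and only 12 HFD cells, 508 against 262 CPM gave -0.96, from -1.63 to -0.33. In fibroblasts 39.5 against 19.2 CPM gave -1.04, from -1.63 to -0.49. Itga1 levels of the HFD library lay below those of the ND library in all 5 gates, and the intervals of their ratios did not reach 0. The tissue that the cells of a gate came from was not measured and may differ between the libraries.

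The share of mitochondrial UMIs differed between the diets within these gates as well, with medians of 18.08% and 22.95% in capillary cells and 13.92% and 22.41% in fibroblasts. Under a mitochondrial limit of 10%, with 237 ND and 20 HFD capillary cells left, the log2 ratio of Itga1 was -0.75. Large-vessel cells under that limit gave -1.25, with 83 and 21 cells. In fibroblasts the limit left 7 HFD cells and the ratio turned to 1.18. The part of cell quality in the lower Itga1 levels of the HFD library was not tested further.

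**Figure D3:**
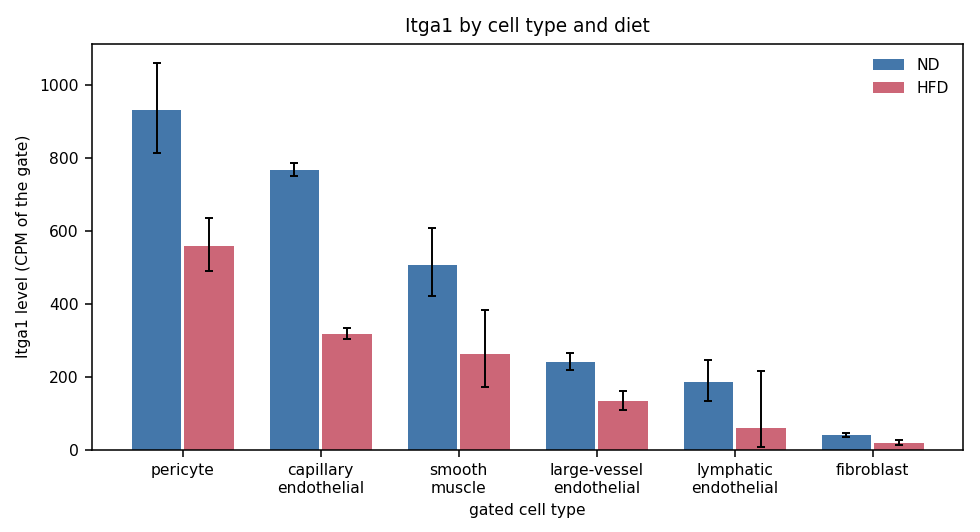
Itga1 level (CPM of the gate) in 6 gated cell types of the ND (blue) and HFD (red) libraries, with exact 95% Poisson intervals. The HFD bar is lower in each gate, from 932 to 559 CPM in pericytes and from 769 to 318 CPM in capillary endothelial cells, and the lymphatic HFD bar rests on 2 UMIs in 7 cells.

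Itgb5, Itga5 and Lamc1 were the other lower members in capillary endothelial cells. Itgb5 was at 48.8 CPM in ND and 12.9 CPM in HFD, a log2 ratio of -1.92 with an interval of -2.30 to -1.56, and it was lower on both sides of the Cxcl9 split at -1.65 and -1.85. Itga5 was at 73.0 and 39.9 CPM with a ratio of -0.87, and Lamc1 at 140 and 80.9 CPM with a ratio of -0.79. Under the mitochondrial limit of 10% the ratios were -1.08 for Itgb5, -0.55 for Lamc1 and -0.01 for Itga5, so the difference of Itga5 was not seen there. Itga6 stayed within the 1.5-fold limit, at 1101 and 978 CPM.

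The higher members in capillary cells were mostly low counts of leukocyte chains. Itga3 was at 44.1 CPM in ND and 66.2 CPM in HFD, a log2 ratio of 0.59, which became 0.09 under the mitochondrial limit of 10%. Itgb2 went from 22 to 42 UMIs, Itgb7 from 12 to 20, Itga4 from 22 to 31 and Itga9 from 31 to 48, with log2 ratios of 1.52, 1.33, 1.08 and 1.22. Of the 42 Itgb2 UMIs, 13 lay in 1 cell. The 5 macrophage markers, all 5 of them counted, summed to 12.9 CPM in the ND and 36.9 CPM in the HFD gate, and their part in these 4 genes was not tested.

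In large-vessel endothelial cells, 4 of 16 members were past the fold upward in HFD and 3 downward, against 10.3% and 13.3% of 7739 genes, with medians of 0.12 for the members and -0.03 for all genes. Basement membrane genes were among those higher. Lamb1 was at 14.7 CPM in ND and 35.9 CPM in HFD, a log2 ratio of 1.29 with an interval of 0.46 to 2.13 from 24 and 29 UMIs. Lamc1 was at 37.4 and 62.0 CPM, a ratio of 0.73 with an interval of 0.16 to 1.29. Col4a1 and Col4a2, collagen IV chains of the same sheet, were higher too, at 269 against 517 CPM and 119 against 326 CPM.

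Lamb2 and Itgb3 were the other named members of that gate besides Itga1. Lamb2 was at 252 CPM in ND and 144 CPM in HFD, a ratio of -0.81 with an interval of -1.12 to -0.51. Itgb3, a beta chain for vitronectin and fibrinogen, was at 20.3 and 43.4 CPM, a ratio of 1.10 with an interval of 0.37 to 1.83. Itgb4 and Itga5, the chains that set these cells apart, were at 151 and 177 CPM and at 184 and 207 CPM, within the 1.5-fold limit.

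In fibroblasts, 1 of 21 members was past the fold upward in HFD and 5 downward, against 5.21% and 17.8% of 9847 genes, and the median of the members equalled that of all genes at -0.16. Lamb2 was at 348 CPM in ND and 206 CPM in HFD, a log2 ratio of -0.75 with an interval of -0.92 to -0.58. Lamb2 was also lower in HFD smooth muscle cells, at 512 against 242 CPM, and in HFD mesothelial cells, at 296 against 96.5 CPM from 44 and 10 UMIs. In capillary endothelial cells Lamb2 was at 171 CPM in both libraries.

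Itga8 and Lamc3 were lower in HFD fibroblasts by more than Lamb2. Itga8 held 85 UMIs in ND and 5 in HFD, 24.0 and 2.82 CPM, a ratio of -3.09 with an interval of -4.75 to -1.81. Under the mitochondrial limit of 10%, which left 7 HFD fibroblasts, the ratio of Itga8 turned to 3.35. Lamc3 was at 30.2 and 11.8 CPM, a ratio of -1.35 with an interval of -2.10 to -0.67. Itga6 was the member past the fold upward, from 18 and 20 UMIs with a ratio of 1.15.

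Kinds of fibroblast were not present in equal shares. When split by Pi16, a marker of adventitial fibroblasts, Inmt or Gdf10, and Fmod, cells with Pi16 alone numbered 304 of 879 in ND and 197 of 383 in HFD, and cells with Fmod alone 30 and 1. This split was likewise added after the data had been seen. Pi16 cells held 2 Itga8 UMIs in ND and 0 in HFD, so most Itga8 UMIs came from other fibroblasts. For Itga1 in Pi16 cells the ratio was -0.33 with an interval of -1.49 to 0.76. The 3 smooth muscle markers, which mark the gate with most Itga8, summed to 20.6 CPM in ND and 5.64 CPM in HFD fibroblasts, and their part was not tested. Lamb1, Lama4, Lama2, Lamc1 and Itgb5, the well counted chains of fibroblasts, stayed within the 1.5-fold limit, with ratios between -0.21 for Lama2 and 0.38 for Lamb1.

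In pericytes, with 36 ND and 61 HFD cells, 1 of 14 members was past the fold upward and 5 downward, against 10.6% and 15.3% of 3519 genes, with medians of -0.10 and -0.06. Besides Itga1, Itgb5 was lower at 94.4 against 35.8 CPM, a ratio of -1.40 from 23 and 15 UMIs, and Itga7 was lower at 103 against 52.6 CPM, a ratio of -0.97 from 25 and 22 UMIs. Itga3 was higher at 36.9 against 86.0 CPM, from 9 and 36 UMIs, with an interval of 0.14 to 2.46. In the 9 ND and 7 HFD pericytes without endothelial markers the ratio of Itga1 was -0.99.

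In T cells, 0 of 6 members were past the fold upward and 5 downward, against 21.9% and 26.7% of 3397 genes, and the medians were -0.93 and -0.05. The HFD gate held only 28 cells with a median of 5433 UMIs, against 228 ND cells with a median of 2602. Itgb7 was at 259 CPM in ND and 101 CPM in HFD, a ratio of -1.36 with an interval of -2.15 to -0.66. Itgb2 was at 160 and 83.9 CPM, Itgb1 at 256 and 134 CPM and Itgal at 263 and 173 CPM, while Itgav went from 35 UMIs to 1. Kinds of T cell differed as well, since CD8 genes were counted in 66 of the 228 cells on normal chow and in 19 of the 28 on the rich diet. In those CD8 T cells Itgal was at 213 CPM in ND and 210 CPM in HFD, and Itgb1 at 226 and 184 CPM, which is nearer than in the whole gate.

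**Figure D4:**
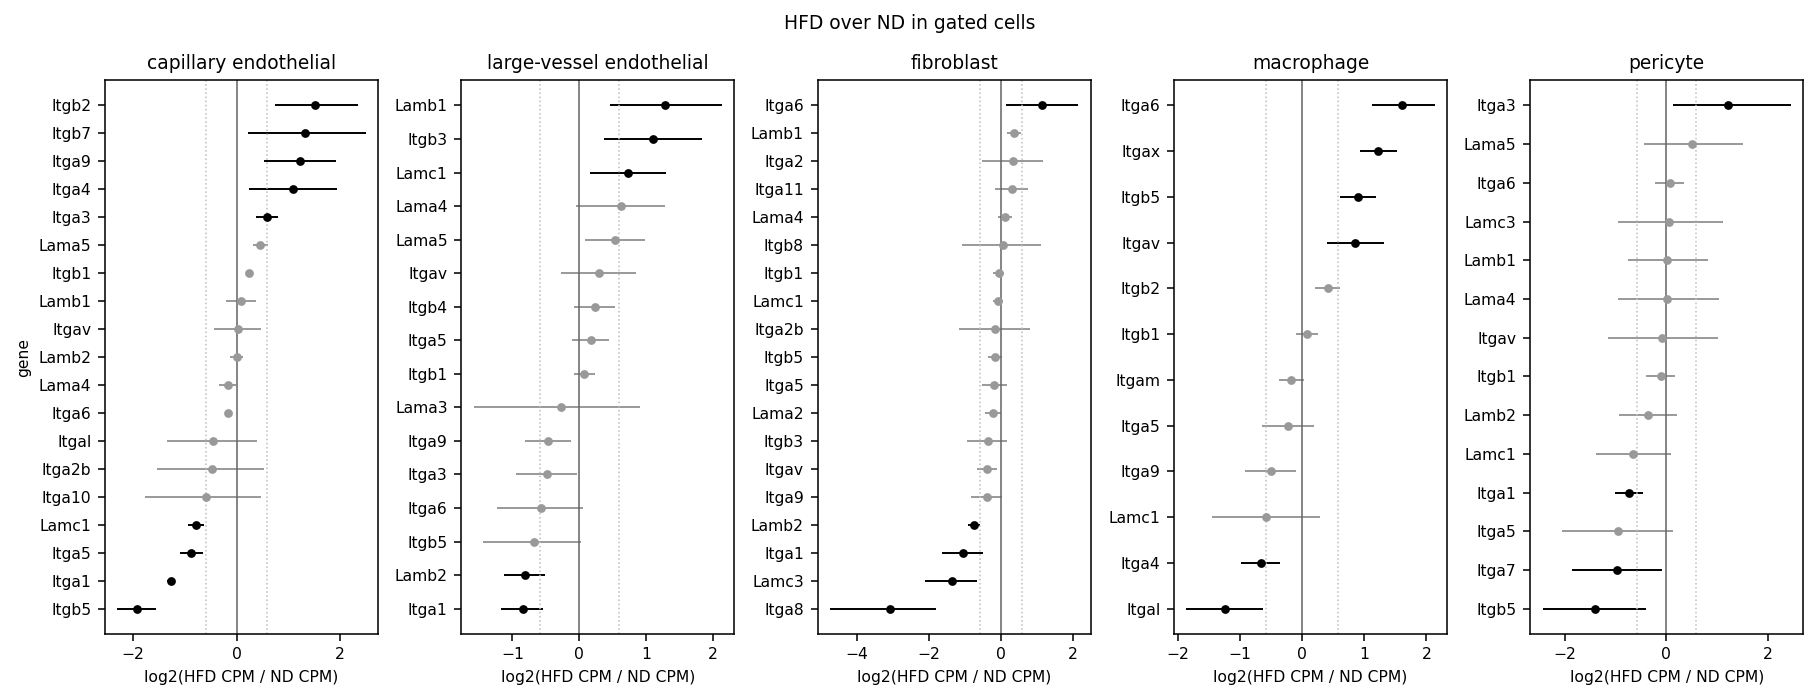
Log2 ratio of HFD to ND CPM for integrin and laminin genes with at least 30 UMIs in 5 gates (T cells and some genes left out), with exact 95% intervals. Black points are past 1.5-fold (dotted lines) with an interval wholly on 1 side of 0, among them Itga1 on the lower side in each gate but macrophages, and Itga6, Itgax, Itgb5 and Itgav on the higher side in macrophages.

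In macrophages, 4 of 12 members were past the fold upward in HFD and 2 downward, against 10.3% and 18.6% of 8336 genes, with medians of -0.05 for the members and -0.11 for all genes. The gate held 334 ND and 436 HFD cells. Itga6 was at 24.5 CPM in ND and 74.8 CPM in HFD, a ratio of 1.61 with an interval of 1.12 to 2.13. Itgax was at 68.7 and 160 CPM with a ratio of 1.22, Itgb5 at 77.9 and 145 CPM with a ratio of 0.89 and Itgav at 32.5 and 58.7 CPM with a ratio of 0.85. Itgal at 31.9 and 13.5 CPM and Itga4 at 95.1 and 59.9 CPM were lower, with ratios of -1.24 and -0.66. Under the mitochondrial limit of 10%, with 33 ND and 20 HFD macrophages left, the ratio of Itga4 turned to 0.32.

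The makeup of the gate differed between diets. Foam-type macrophages, gated by at least 2 of Trem2, Gpnmb and Spp1 and named for the lipid-laden cells of plaques, numbered 5 in ND and 137 in HFD. Resident macrophages, gated by at least 2 of Lyve1, Folr2, F13a1 and Cbr2, numbered 236 and 199. Within resident macrophages alone no member with at least 30 UMIs was past the fold upward between diets. Itgax, at 4.44 CPM in ND and 7.47 CPM in HFD from 5 and 8 UMIs, fell under that minimum. In resident macrophages Itga6 was at 15.1 and 14.9 CPM, Itgb5 at 54.2 and 52.3 CPM and Itgav at 24.0 and 14.9 CPM. The higher values of these 3 genes were thus not seen without the foam-type and remaining cells. Itga4 was lower in resident macrophages too, at a ratio of -0.86.

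The foam-type and resident macrophages of the HFD library were therefore set side by side. The foam-type cells had a median of 9162 UMIs and 15.11% mitochondrial UMIs, the resident cells 5208 UMIs and 23.26%, and haemoglobin genes summed to 9156 and 5231 CPM. The part of these differences in the values that follow was not tested. Upward in foam-type cells, 7 of 10 members were past the fold, and 1 was downward, against 20.2% and 24.6% of 6505 genes. The median log2 ratio was 1.06 for the members and -0.06 for all genes. Itgax was at 281 CPM in foam-type and 7.47 CPM in resident cells, 37.6-fold apart, with a log2 interval of 4.24 to 6.46. Itgam was at 82.6 and 266 CPM, 3.22-fold lower, with an interval of -2.01 to -1.37. The genes of Cd11c and Cd11b thus lay in opposite order in these cells, though both pair with the chain of Itgb2, which was at 290 and 156 CPM.

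The chains of the osteopontin and vitronectin receptor were higher in foam-type cells. Itgb5 was at 232 CPM against 52.3 CPM in resident cells, a ratio of 4.44-fold. Itgav was at 93.9 against 14.9 CPM, a ratio of 6.29-fold. Spp1, the gene of the ligand osteopontin, helped to define the gate and is given only as a level, 6054 CPM in foam-type and 17.7 CPM in resident cells.

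Itga6, elsewhere a gene of capillary cells, was at 136 CPM in foam-type and 14.9 CPM in resident cells, 9.08-fold apart, and no foam-type cell held more than 8 of its 192 UMIs. The 5 endothelial markers summed to 25.4 CPM in foam-type and 49.5 CPM in resident cells. The part of endothelial RNA in these Itga6 levels was not tested. Itga9 at 48.0 against 20.5 CPM and Itga5 at 49.4 against 28.9 CPM were also higher in foam-type cells. Resident macrophages of the ND library held Itga9 at 43.5 CPM, near the foam-type level. Its log2 ratio of HFD to ND in resident cells was -1.08, with an interval of -1.88 to -0.33. Itgb1, at 246 and 260 CPM, and Itga4, at 44.5 and 47.6 CPM, stayed within the 1.5-fold limit. The 5 ND cells of foam type held 14 Itgax, 10 Itga6, 10 Itgb5 and 7 Itgav UMIs, too few cells to set the diets against each other.

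**Figure D5:**
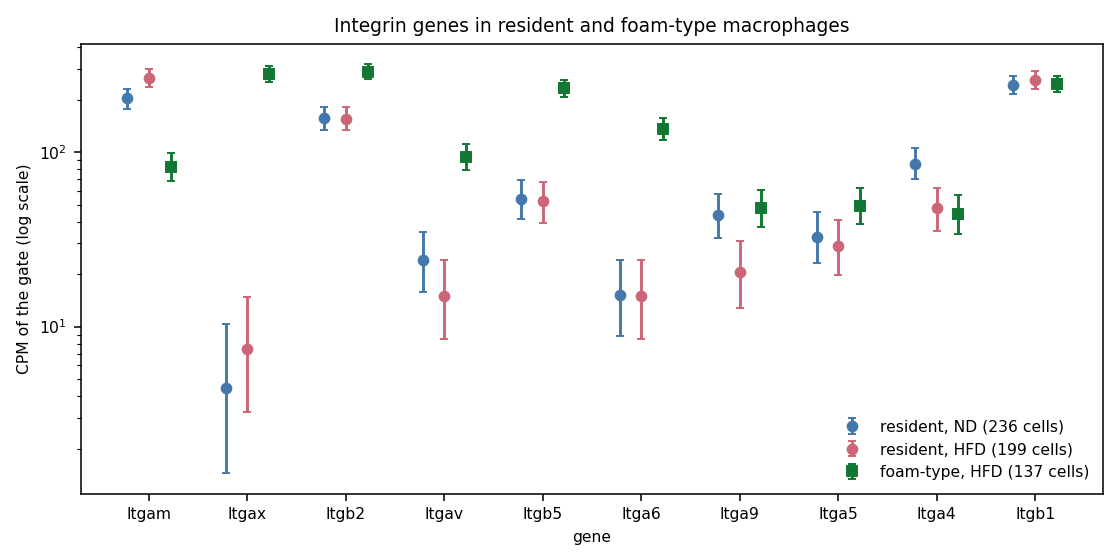
Levels of 10 integrin genes (CPM of the gate, log axis) in ND resident (blue), HFD resident (red) and HFD foam-type (green squares) macrophages, with exact 95% Poisson intervals. The squares lie above both resident levels for Itgax, Itgb2, Itgav, Itgb5 and Itga6, below them for Itgam, and among them for Itgb1.

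Partners of integrins and laminins were read from 3 lists of 28 genes, with 12 adaptors inside the cell, 8 integrin ligands and 8 partners of laminins in the basement membrane. In capillary endothelial cells, 4 of 24 listed genes were past the fold upward in HFD and 3 downward, beside 7.08% and 17.7% of all genes counted enough. Vcl, the gene of vinculin, which links integrin contacts to actin, was at 295 CPM in ND and 102 CPM in HFD, a log2 ratio of -1.53. Agrn, the gene of the basement membrane protein agrin, was at 54.4 and 24.0 CPM, and Lims1, an adaptor of integrin-linked kinase, at 175 and 112 CPM. Fn1 was at 15.5 and 40.3 CPM, and Spp1 went from 3 to 80 UMIs, Fermt3, the kindlin of blood cells, from 8 to 29 and Vcam1 from 41 to 46, beside the macrophage markers given above.

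Vcl was lower in HFD in 3 further gates. It was at 159 and 79.3 CPM in large-vessel endothelial cells, 90.9 and 60.4 CPM in fibroblasts and 242 and 148 CPM in pericytes, with log2 ratios of -1.003, -0.59 and -0.71. In these 4 gates Itga1 was lower as well. In smooth muscle cells, where Itga1 was also lower, Vcl was at 407 CPM in ND and 393 CPM in HFD. Its log2 ratio there was -0.05 with an interval of -0.63 to 0.50. For listed genes only the counts past the fold were recomputed under other mitochondrial limits. Of the genes of talin, the adaptor that switches integrins on, Tln1 stayed within the 1.5-fold limit in all 6 gates compared, and Tln2 was lower in large-vessel endothelial cells.

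In large-vessel cells 2 of 22 listed genes were past the fold upward and 4 downward, beside 10.3% and 13.3% of all genes. The upward genes were the collagen IV genes above, and the downward genes besides Vcl were Ilk at 116 and 74.4 CPM, Tln2 at 38.7 and 21.1 CPM and Vcam1, a gene of the gate. In fibroblasts 4 of 21 were upward and 1 downward, beside 5.21% and 17.8% of all genes. Col4a1 at 334 and 513 CPM, Col4a2 at 138 and 240 CPM and Fn1 at 2017 and 3305 CPM were higher, and Spp1 went from 3 to 27 UMIs. HFD foam-type macrophages held Spp1 at 6054 CPM, and the part of RNA from other cells in the fibroblast value was not tested. The laminin partners Nid1, Hspg2 and Dag1 stayed within the limit in capillary, large-vessel, fibroblast and pericyte gates.

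In macrophages 1 of 21 listed genes was upward, Spp1, and 6 were downward, beside 10.3% and 18.6% of all genes. Of the 6, Icam1 at 302 and 119 CPM, Lims1 at 103 and 68.3 CPM, Ptk2 at 16.0 and 7.09 CPM and Nid2 at 12.9 and 5.48 CPM had intervals on 1 side of 0. In T cells 1 of 6 was upward and 3 downward, beside 21.9% and 26.7% of all genes. The upward gene was Ilk at 32.9 CPM in ND and 72.7 CPM in HFD, and Fn1 at 83.8 and 22.4 CPM and Icam1 at 130 and 61.5 CPM were lower with intervals on 1 side of 0. In pericytes 2 of 18 were upward, Icam2 and Cd151 at log2 ratios of 0.77 and 0.61, and Vcl alone was downward, beside 10.6% and 15.3% of all genes.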

How the data were processed

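Aortic cells of 1 ND and 1 HFD library were measured by 10x single-cell RNA-seq. The authors made UMI counts per gene and per barcode in Cell Ranger (3.0.1 per the file headers) on mm10 per the submitters' processing notes, and the deposited counts are raw and include barcodes below the study's filter. A matrix joining both libraries was not used. Gene positions are those of GENCODE on GRCm38.

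Kept barcodes had 200 or more genes, 200 or more UMIs and at most 30% mitochondrial UMIs, limits that follow the study's methods and left as many cells per library as those methods state. A cell belonged to a class when it reached the minimum of that class's markers and of no other class, except that pericytes and smooth muscle cells could also reach the endothelial minimum. No doublet caller was run. Cells of 2 classes were left out, and an alternative left out the 6% of cells with the most UMIs in each gate. UMIs were summed per gate and library, as CPM, with exact 95% Poisson intervals. Log2 ratios have exact conditional binomial 95% intervals. The limits were 1.5-fold and 30 UMIs, and a count of 0 was read with 3 UMIs over the gate as its floor. With 1 library per group there was no test and no p-value. All members with at least 200 UMIs were named with their highest gates, and members and listed genes past the fold were named where the interval lay wholly above or below no difference, at most 5 each way. One item is not reported here. The members and lists were chosen with earlier results of these data known. The steps were tested on simulated data. Alternatives changed the scaling, gates, mitochondrial limit, weight of cells and minimum UMIs. Calculations used Python 3.11.15, numpy 2.4.6, scipy 1.17.1 and pandas 2.3.3, with matplotlib 3.10.9 for figures.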

Additional observations from a re-analysis of the deposited data

Results flagged for a closer look

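Several genes stood on opposite sides between diets in 2 gates, and none of these differences was tested. Each is given as the gap between the log2 HFD to ND ratios of both gates. For Itgb5 it was 2.81 between macrophages and capillary endothelial cells and 2.29 between macrophages and pericytes. For Lamc1 it was 1.51 between large-vessel and capillary endothelial cells, with levels of 37.4 and 62.0 CPM in the former and 140 and 80.9 CPM in the latter. For Itga4 it was 1.75 between capillary endothelial cells and macrophages. T cells stood against other gates for Itgav, with a gap of 4.08 to macrophages, and for Itgb2 and Itgb7, with gaps of 2.45 and 2.69 to capillary endothelial cells. The T cell values rest on 28 HFD cells.

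Integrin and laminin genes were also counted in the barcodes that the filter removed, which no comparison used. There the members summed to 1082 CPM in the ND and 1152 CPM in the HFD library, against 2190 and 2027 CPM in kept cells.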

How the results depend on the processing

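With 1 library per diet, the spread between animals could not be measured, and depth limited the members of small gates. No paired analysis was possible because the labels carry no replicate numbers and each diet has 1 library. Of 303 recomputed ratios of named members, 271 kept their direction within their interval, 26 moved and 6 turned direction. The 6 were Itga8 at 3.35, Itga1 at 1.18 (both fibroblasts) and Itga4 at 0.32 (macrophages) under the 10% mitochondrial limit, and Itga6 at -0.015, Itgb5 at -0.051 and Itgav at -0.68 with resident macrophages alone, an alternative added after seeing the data. That gate alone gave 0 members higher and 4 lower. A 10% limit left 7 HFD fibroblasts and was not run for T cells and pericytes, which kept 0 and 1 HFD cells. Counts of members are given in the order higher, then lower, where they moved. Median of ratios scaling gave 2 higher in fibroblasts, 1 lower in macrophages, and 2 and 3 in pericytes, and it moved the median log2 ratio of all genes from -0.161 to -0.019 in capillary cells and from -0.050 to -0.334 in T cells. Leaving out mitochondrial, haemoglobin and ribosomal genes gave 2 and 3 in fibroblasts. A further marker gave 2 higher in large-vessel cells, 2 higher in fibroblasts, 3 lower in T cells and 0 higher in pericytes. The 20% limit gave 3 higher in capillary cells and 1 lower in pericytes, and the 10% limit gave 1 and 2 in capillary cells, 3 higher in fibroblasts and 1 lower in macrophages. The mean of cells gave 2 higher in large-vessel cells, fibroblasts and pericytes, and leaving out the 6% of cells with the most UMIs gave 2 higher in fibroblasts and pericytes. Leaving out mural cells with endothelial markers gave 0 and 2 in pericytes. A minimum of 100 UMIs gave 1 higher in capillary and large-vessel cells, 0 and 3 in fibroblasts, 1 lower in macrophages, 0 and 1 in pericytes, and 19 in place of 32 listed genes past the fold. A minimum of 1 UMI gave 9 and 8 in capillary cells, 11 and 6 in large-vessel cells, 3 and 11 in fibroblasts, 7 lower in macrophages, 2 and 8 in T cells and 2 higher in pericytes. The cause of these moves was not tested.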
